A study of Drosophila melanogaster with 8 samples.

Results

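The 10 genes described here encode subunits of respiratory complex I of Drosophila melanogaster, the NADH dehydrogenase of the inner mitochondrial membrane, and were taken by symbol from the 15141 genes of the deposited count tables. All 10 symbols were found, and all 10 genes passed the filter on low counts that left 9252 genes for testing. Of the 10, 9 are described singly, and 1 enters the sums and counts alone. RNA was measured in 8 libraries, each from 150 pooled heads of late pupae, 73 to 90 h after puparium formation. TDP-43, the protein under study, binds RNA and is linked to human motor neuron disease, and its fly counterpart dTDP-43 is encoded by TBPH. The groups hold 2 libraries each. The deficiency genotype (dTDP-43Δ142/Df(2R)106) carried a deletion allele over a chromosomal deficiency, and the 2-deletion genotype (dTDP-43Δ23/Δ142) carried a pair of deletion alleles. Both are loss-of-function genotypes. In the gain-of-function group (act5c>dTDP-43), the actin 5C driver, which is active in most cells, expressed the fly protein. The wild-type libraries are titled Canton S, w1118 and have w1118 as their genotype, so the exact stock is not settled. The replicates are described as biological, and separate crosses are not mentioned, so the tests measure the spread between these libraries.

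Complex I takes electrons from NADH, passes them along a chain of iron-sulfur clusters to ubiquinone and pumps protons out of the mitochondrial matrix. It is L-shaped: the N module at the tip of the matrix arm oxidises NADH, the Q module below it reduces ubiquinone, and the membrane arm, the P module, moves the protons. Core subunits carry out the catalysis, while accessory subunits surround them and are needed for assembly and stability. The matrix-arm core subunits are encoded in the nucleus in flies, and the core subunits of the membrane arm in the mitochondrial genome. Adult muscle and photoreceptors, both of which mature in the late pupa, are rich in mitochondria.

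Library totals ranged from 716027 to 1302855 counts, and the 10 genes together had 503 to 836 counts per library. The common biological coefficient of variation between replicates was 20.7%. The largest member count, 192 reads of ND75 in wild-type replicate 1, has an exact 95% Poisson interval of 166 to 221. The smallest, 12 reads of CG12079 in gain-of-function replicate 1, has one of 6.20 to 21.0. These intervals cover counting error only. TBPH itself had 43 and 40 counts in wild type, 41 and 28 in the deficiency libraries, 47 and 57 in the 2-deletion libraries and 68 and 42 in the gain-of-function group. As counts divided by the scaled library size (CPM), TBPH was at 49.8 and 57.1 in wild type and 49.4 and 30.8 in the deficiency libraries. It was at 40.2 and 44.2 in the 2-deletion libraries and 55.1 and 38.8 in the gain-of-function group. Every loss-of-function library lay below both wild-type libraries, deficiency replicate 1 only just, and the gain-of-function libraries overlapped wild type. TBPH was called in no comparison by edgeR's quasi-likelihood test. Against wild type the test gave log2 folds of -0.38 (adjusted p = 0.468) for loss and -0.18 (adjusted p = 0.794) for gain. The test on TBPH therefore does not separate the groups as labelled. Markers of neurons, glia, muscle and photoreceptors were all detected in the labelled tissue, with rhodopsin genes low: Rh4 had 15 counts over all libraries. All 13 protein genes of the mitochondrial genome, the 7 complex I genes among them, were listed at 0 counts in every library, so the membrane-arm core was not analysed here.

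RNA for the 10 complex I genes was lower in the mutant heads than in wild type. Their summed level, in TMM-scaled CPM (counts divided by the scaled library size), was 967 and 1103 in the wild-type libraries. It was 621 and 756 in the deficiency libraries, 502 and 496 in the 2-deletion libraries and 447 and 465 in the gain-of-function group. Every mutant library lay below both wild-type libraries, the deficiency genotype at 60.0% and 73.0% of the wild-type mean and the others between 43.2% and 48.5%. In bulk heads, fewer cells of a type and less RNA per cell cannot be told apart.

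**Figure D1:**
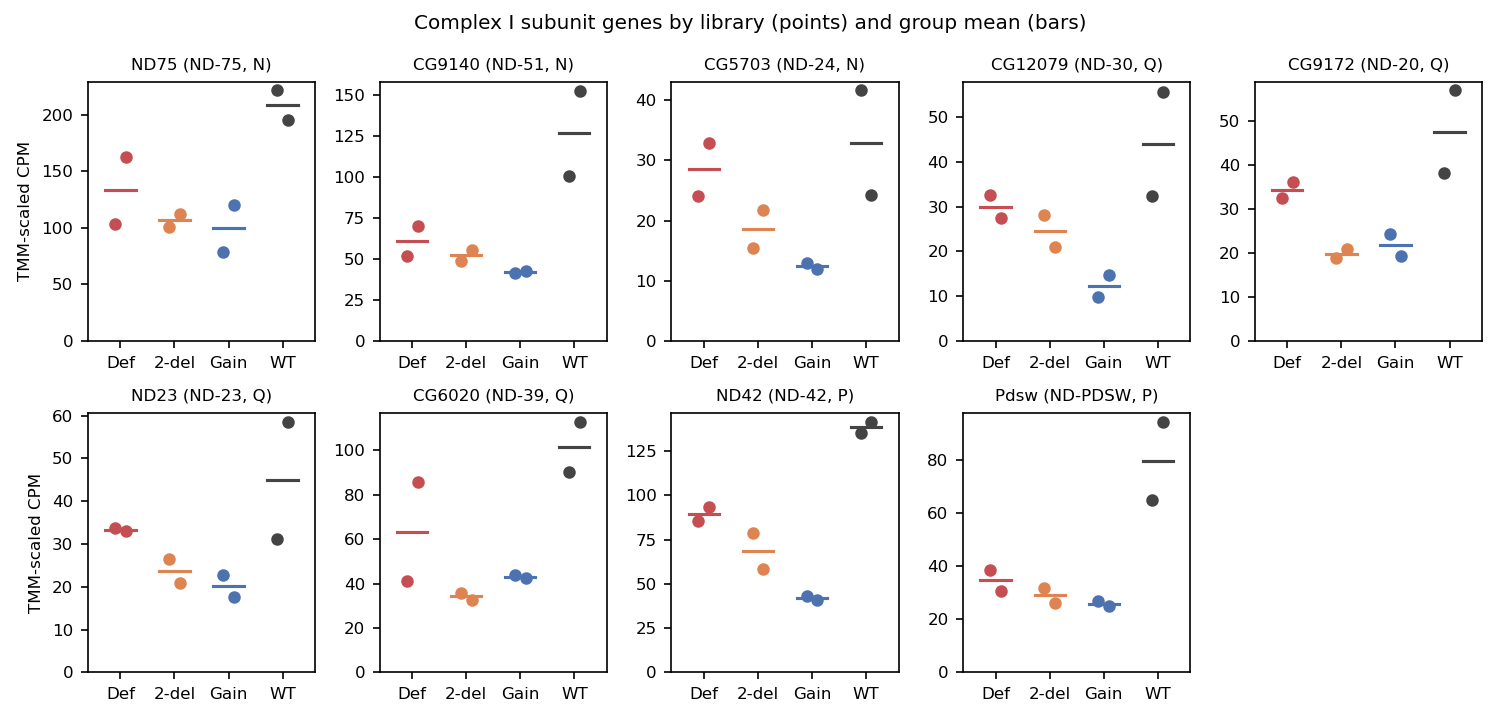
Level of 9 complex I subunit genes in TMM-scaled CPM (vertical axes, from 0) in each library (points) of the deficiency (Def), 2-deletion (2-del), gain-of-function (Gain) and wild-type (WT) groups, with the mean of 2 libraries as a bar and the module (N, Q or P) in each title. ND42 shows the gain-of-function libraries at 42.98 and 40.7 CPM and the wild-type libraries at 135 and 141 CPM.

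The N module was represented by its 3 core subunits. ND75 (ND-75, on chromosome X, with 2634 exon bases in the BDGP6 annotation) encodes the fly NDUFS1, the largest subunit of the matrix arm, which holds several iron-sulfur clusters. It was measured at 222 and 196 CPM in wild type, 104 and 163 in the deficiency libraries, 101 and 112 in the 2-deletion libraries and 78.7 and 120 in the gain-of-function group. All 6 mutant libraries were below the wild-type range, and the 2 replicates of the deficiency and gain-of-function groups were far apart. The log2 fold was -1.08 (SE 0.26, adjusted p = 0.0437, edgeR quasi-likelihood test) in gain of function against wild type, a fall, and -0.81 (SE 0.21, adjusted p = 0.0701) in loss of function, where the threshold of 0.05 was missed. CG9140 (ND-51, chromosome 2L, 1590 exon bases) encodes the NDUFV1 counterpart, which binds flavin mononucleotide and is the site of NADH oxidation. Its levels were 101 and 153 CPM in wild type, 51.8 and 70.4 in the deficiency libraries, 48.7 and 55.8 in the 2-deletion libraries and 41.4 and 42.5 in the gain-of-function group. The mutant libraries again lay wholly below wild type, although wild type itself spread 1.52-fold. CG9140 fell in both comparisons, by edgeR to a log2 fold of -1.15 (SE 0.22, adjusted p = 0.0286) in loss and -1.59 (SE 0.27, adjusted p = 0.0141) in gain of function. CG5703 (ND-24, chromosome X, 1064 exon bases) encodes the NDUFV2 counterpart, which carries an iron-sulfur cluster beside the flavin. It was among the lowest members, at 41.7 and 24.3 CPM in wild type, 24.1 and 33.0 in the deficiency libraries, 15.4 and 21.7 in the 2-deletion libraries and 13.0 and 12.02 in the gain-of-function group. The deficiency libraries overlapped wild type, and those of the other mutant groups did not. Neither difference passed the test, with log2 folds of -0.53 (SE 0.33, adjusted p = 0.400) in loss and -1.41 (SE 0.40, adjusted p = 0.0799) in gain of function by edgeR.

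In the Q module, CG12079 (ND-30, chromosome 3L, 976 exon bases), the NDUFS3 counterpart, is a core subunit of the Q module that enters early in assembly. Its levels were 32.4 and 55.7 CPM in wild type, 32.6 and 27.5 in the deficiency libraries, 28.2 and 20.9 in the 2-deletion libraries and 9.73 and 14.8 in the gain-of-function group. Deficiency replicate 1 lay just above the lower wild-type library, whereas the gain-of-function libraries stood apart below all others. By edgeR CG12079 fell in gain of function, with a log2 fold of -1.83 (SE 0.40, adjusted p = 0.0319), and had one of -0.68 (SE 0.31, adjusted p = 0.250) in loss of function.

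CG9172 (ND-20, chromosome X, 1336 exon bases) encodes the NDUFS7 counterpart, whose iron-sulfur cluster is the last before ubiquinone. It stood at 38.2 and 57.1 CPM in wild type, 32.6 and 36.3 in the deficiency libraries, 18.8 and 20.9 in the 2-deletion libraries and 24.3 and 19.4 in the gain-of-function group. No mutant library reached the wild-type range, and the deficiency libraries came closest to it. The log2 folds of -0.85 (SE 0.28, adjusted p = 0.117) in loss and -1.10 (SE 0.33, adjusted p = 0.0869) in gain of function did not pass edgeR's test. ND23 (ND-23, chromosome 3R, 819 exon bases), the NDUFS8 counterpart, binds a pair of iron-sulfur clusters. Its levels were 31.2 and 58.6 CPM in wild type, 33.8 and 33.0 in the deficiency libraries, 26.5 and 20.9 in the 2-deletion libraries and 22.7 and 17.6 in the gain-of-function group. The wild-type replicates differed 1.87-fold, the widest of the 10 genes in that group, and both deficiency libraries fell between them. ND23 was not called, with log2 folds of -0.66 (SE 0.31, adjusted p = 0.260) in loss and -1.13 (SE 0.37, adjusted p = 0.117) in gain of function by edgeR.

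CG6020 (ND-39, chromosome 3L, 1616 exon bases) encodes the NDUFA9 counterpart, an accessory subunit of the dehydrogenase-reductase fold at the junction of the matrix and membrane arms. It was measured at 90.2 and 113 CPM in wild type, 41.0 and 85.8 in the deficiency libraries, 35.9 and 32.5 in the 2-deletion libraries and 43.8 and 42.5 in the gain-of-function group. Deficiency replicate 2 was close to wild type, and the other 5 mutant libraries were at most at 43.8 CPM. By edgeR CG6020 just missed the threshold, with log2 folds of -1.12 (SE 0.26, adjusted p = 0.0509) in loss and -1.23 (SE 0.31, adjusted p = 0.0546) in gain of function. Without deficiency replicate 2, the highest loss-of-function library for this gene, the loss-of-function fold was -1.43. Leaving out the highest library deepens a fall by construction.

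The membrane arm was represented by a pair of accessory subunits. ND42 (ND-42, chromosome 3R, 1618 exon bases) encodes the NDUFA10 counterpart, related to deoxynucleoside kinases and studied in flies together with the mitochondrial kinase Pink1. It was measured at 135 and 141 CPM in wild type, 85.6 and 93.5 in the deficiency libraries, 78.6 and 58.1 in the 2-deletion libraries and 42.98 and 40.7 in the gain-of-function group. The libraries of wild type, of loss of function and of gain of function formed separate ranges in that order. ND42 fell by edgeR to a log2 fold of -0.82 (SE 0.18, adjusted p = 0.0467) in loss and -1.72 (SE 0.23, adjusted p = 0.00671) in gain of function. Pdsw (ND-PDSW, chromosome 2L, 738 exon bases), the NDUFB10 counterpart, lies in the distal membrane arm. Its levels were 64.8 and 94.3 CPM in wild type, 38.6 and 30.8 in the deficiency libraries, 31.6 and 26.3 in the 2-deletion libraries and 26.8 and 24.97 in the gain-of-function group. All mutant libraries were at most at 38.6 CPM, with the mutant groups close to each other. Pdsw fell in both comparisons, with log2 folds of -1.32 (SE 0.25, adjusted p = 0.0267) in loss and -1.61 (SE 0.30, adjusted p = 0.0197) in gain of function by edgeR.

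Counted over the complex, 3 of the 10 genes (CG9140, ND42 and Pdsw) fell in loss of function against wild type, where 1.58% of all genes tested fell. No member rose. All 10 folds were negative, as were 49.9% of all folds, with a median of -0.82 on the log2 scale beside 0.0016 for all genes tested. In 7 of the 10, every loss-of-function library was lower than both wild-type libraries, as for 16.1% of all genes. Without either 2-deletion library or either wild-type library, the count of members called was 0, and without either gain-of-function library it was 6. The number of all genes that fell moved likewise, from 146 with all libraries to 30 and 19 without a 2-deletion library, 4 and 2 without a wild-type library, and 494 and 498 without a gain-of-function library. ND42 was called by neither DESeq2 (adjusted p = 0.152) nor limma-voom (adjusted p = 0.0576), which called CG9140 and Pdsw. Leaving out deficiency replicate 1 left CG9140 and Pdsw, and leaving out deficiency replicate 2 gave 4 calls, with ND75 and CG6020 in place of ND42.

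In gain of function against wild type, 5 of the 10 (ND75, CG9140, CG12079, ND42 and Pdsw) fell, where 2.19% of all genes tested fell. All 10 folds were again negative, as were 49.0% of all folds, with a median of -1.32 on the log2 scale beside 0.012 for all genes. Both gain-of-function libraries lay below both wild-type libraries for each of the 10, as for 24.9% of all genes. CG9140, ND42 and Pdsw were called in 7 of the 8 fits that left out 1 library each. In the other fit, without wild-type replicate 2, all 5 lost the call. The log2 folds there of CG9140, ND42 and Pdsw were -1.24, -1.67 and -1.30. ND75 and CG12079 also lost the call without 2-deletion replicate 1, gain-of-function replicate 1 or wild-type replicate 1, and ND75 without 2-deletion replicate 2. In each of these fits fewer of all genes fell than with all libraries, so calls were lost beyond the members. The comparisons with wild type share the same 2 wild-type libraries, so their folds are given side by side and are not independent of each other.

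**Figure D2:**
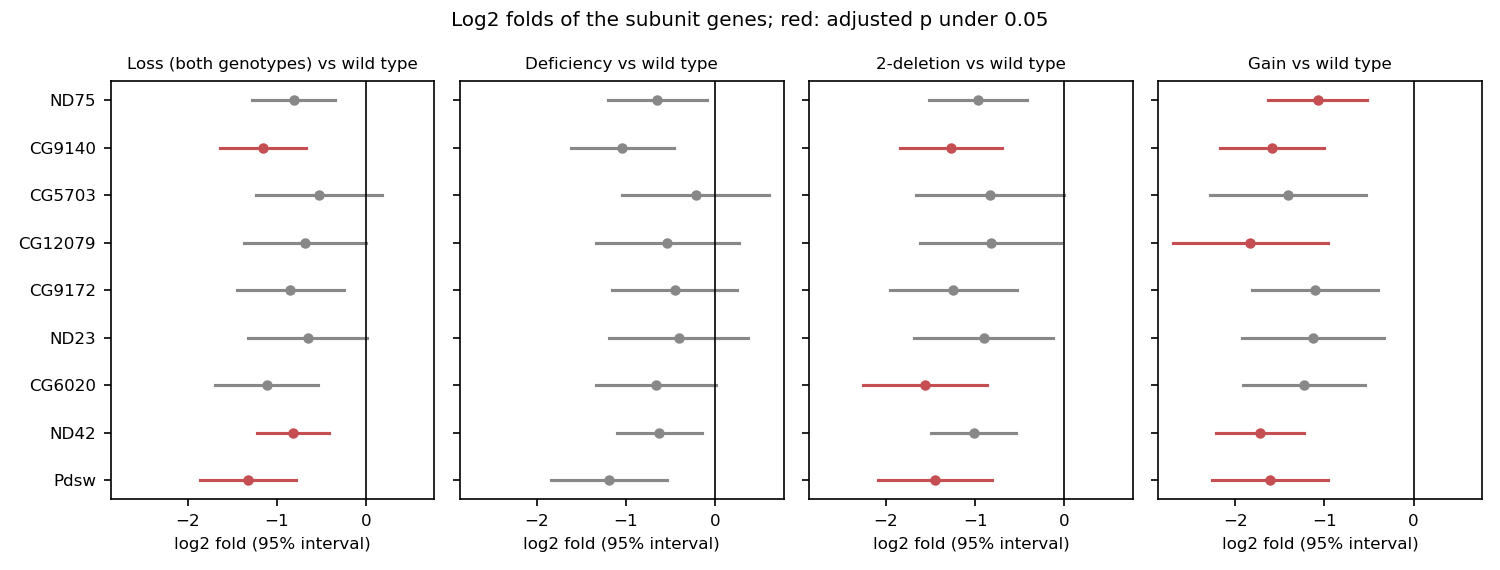
Log2 fold of 9 complex I subunit genes (points) with its 95% interval (lines) in 4 comparisons with wild type, from edgeR's quasi-likelihood fit, with red for an adjusted p under 0.05 over all genes. All folds are negative: 3 genes are red for loss of function, 0 for the deficiency genotype, 3 for the 2-deletion genotype and 5 for gain of function.

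**Figure D3:**
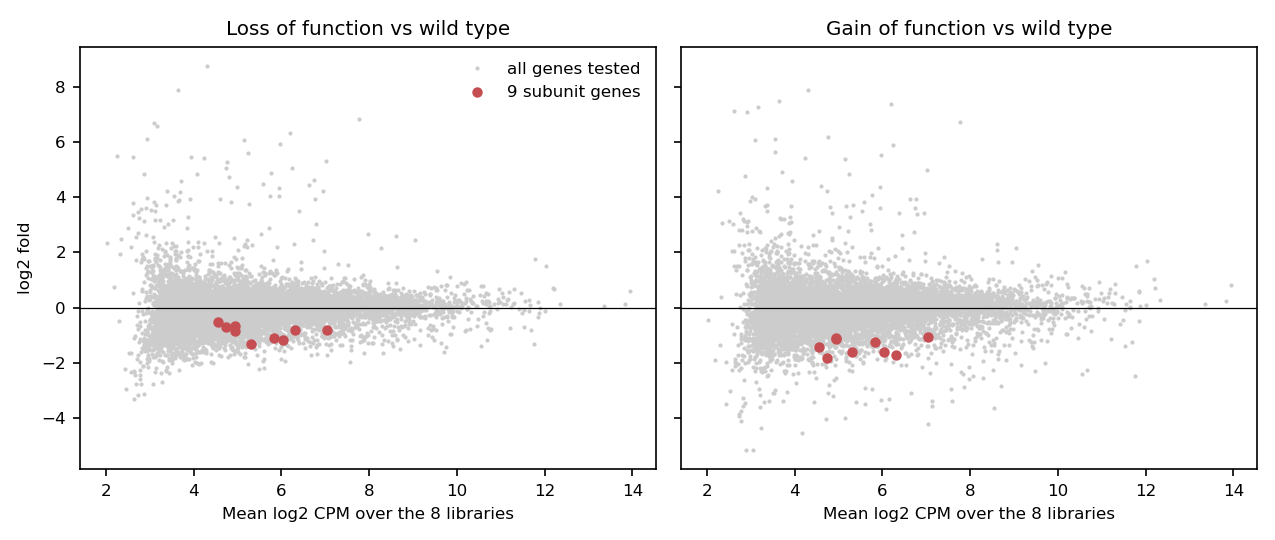
Log2 fold (vertical axes) against mean log2 CPM over the 8 libraries (horizontal axes) for all 9252 genes tested (grey) and 9 complex I subunit genes (red), for loss of function (left) and gain of function (right), each against wild type. The 9 genes lie below 0 in both panels, between -1.32 and -0.53 in loss and between -1.83 and -1.08 in gain of function.

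Taken by genotype, the deficiency libraries gave no member call against wild type, where 1.11% of all genes tested fell. The adjusted p of the 10 genes ran from 0.0654 for Pdsw to 0.821 for CG5703 by edgeR, and 4 had an unadjusted p under 0.05, as 10.2% of all genes had in that direction. DESeq2 and limma-voom also called 0. Their folds were negative in all 10, as in 49.4% of all genes, with a median of -0.58 on the log2 scale. In 7 of the 10 both deficiency libraries were below wild type, as for 25.2% of all genes. Without either gain-of-function library, 2 genes, CG9140 and Pdsw, were called, and the number of all genes that fell was 351 and 337, beside 103 with all libraries. In the 2-deletion genotype 3 genes fell, where 0.584% of all genes tested fell. These were CG9140 (log2 fold -1.27, SE 0.26, adjusted p = 0.0474), CG6020 (-1.56, SE 0.32, adjusted p = 0.0451) and Pdsw (-1.45, SE 0.29, adjusted p = 0.0446), by edgeR. Both 2-deletion libraries were below wild type for all 10, as for 26.3% of all genes. All 10 folds were negative, as were 49.6% of all folds, and the median was -0.99. That count was 0 without either 2-deletion or either wild-type library, 5 without deficiency replicate 2 and 7 without either gain-of-function library. Over all genes, 54 fell with all libraries, 108 without deficiency replicate 2, 263 and 288 without a gain-of-function library and 0 to 3 without a 2-deletion or wild-type library.

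The 2 loss-of-function genotypes were compared directly, since a call in only the 2-deletion genotype does not show a difference between them. All 10 genes had higher fitted levels in the deficiency genotype, as had 50.8% of all genes, with a median log2 fold of 0.44, and in 6 the libraries did not overlap, as for 20.7% of all genes in that direction. No member and none of the 9252 genes was called by edgeR (0%). At an unadjusted p under 0.05 there were 869 genes, and DESeq2 called 8 and limma-voom 0. Of the members 3 had an unadjusted p under 0.05, as 4.07% of all genes had in that direction. Among these CG6020 had a log2 fold of 0.90 (95% interval 0.19 to 1.60) and CG9172 of 0.79 (interval 0.06 to 1.51), with adjusted p = 0.428 and 0.493 by edgeR. For 7 of the 10 the intervals included 0. The widest of them ran from -0.21 to 1.45, for CG5703.

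Loss and gain of function were also compared directly. All 10 genes had higher fitted levels in loss than in gain of function, as had 48.3% of all genes, with a median log2 fold of 0.36, and the libraries did not overlap for CG9140, CG5703, CG12079 and ND42, as for 6.20% of all genes in that direction. None of these differences passed edgeR's test over all genes, in which 0% of genes were called. At an unadjusted p under 0.05 there were 507 genes, and DESeq2 called 8 and limma-voom 0. Of the members 3 had an unadjusted p under 0.05, as 2.96% of all genes had in that direction, the smallest being that of ND42, with a log2 fold of 0.90 (95% interval 0.46 to 1.34, adjusted p = 0.586, edgeR). CG12079 had a fold of 1.15 (interval 0.36 to 1.93, adjusted p = 0.822) and CG5703 of 0.88 (interval 0.09 to 1.66, adjusted p = 0.883), by the same test. At the other end, CG6020 differed by 0.11, with an interval of -0.50 to 0.72.

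Levels of different genes were compared per exon length, in CPM per kb of exon. Among the 9 genes described singly, Pdsw was highest in wild type at 108 ± 28.3 (SD, n = 2) CPM per kb, then came ND42 at 85.5 ± 2.65, CG9140 at 79.7 ± 23.2 and ND75 at 79.3 ± 7.10. Below these were CG6020 at 62.8 ± 9.89, ND23 at 54.8 ± 23.6, CG12079 at 45.1 ± 16.9, CG9172 at 35.7 ± 10.04 and CG5703 at 31.0 ± 11.5. Among neighbours in that order, the 2 libraries did not overlap between Pdsw and ND42 and between ND75 and CG6020, and they overlapped between all others. The span from the lowest to the highest gene was 3.48-fold in wild type, 2.15-fold in the deficiency libraries, 2.84-fold in the 2-deletion libraries and 3.21-fold in the gain-of-function group. In the deficiency genotype the order began with ND42 at 55.3 ± 3.44, ND75 at 50.6 ± 15.9 and Pdsw at 47.0 ± 7.46, then a gap to ND23 at 40.8 ± 0.660, and ended with CG9172 at 25.8 ± 1.98. The same 3 genes came first in the 2-deletion genotype, with ND42 at 42.3 ± 8.97, ND75 at 40.5 ± 3.08 and Pdsw at 39.3 ± 5.06, and the lowest was again CG9172, at 14.9 ± 1.12. By its mean, ND42 ranked 2 of 9 in wild type and 5 of 9 in the gain-of-function group, at 25.9 ± 1.001 CPM per kb. There it lay below ND75 at 37.8 ± 11.2 and Pdsw at 35.0 ± 1.72. Its libraries overlapped those of CG6020 at 26.7 ± 0.548, CG9140 at 26.4 ± 0.525 and ND23 at 24.6 ± 4.43. In wild type they overlapped those of CG9140 and ND75, so its exact places are not settled.

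**Figure D4:**
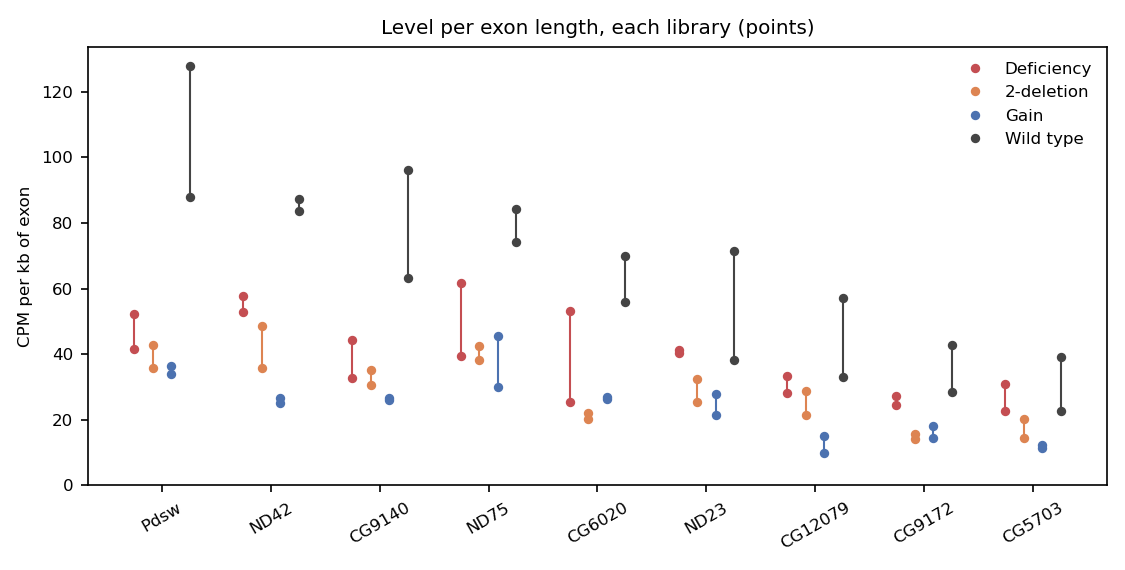
Level of 9 complex I subunit genes in CPM per kb of exon (vertical axis, from 0) in each library (points, with a line joining the 2 replicates), by group, in the order of the wild-type means. Pdsw has the highest mean in wild type, at 108 CPM per kb, and the replicates of Pdsw, CG9140 and ND23 are far apart in wild type.

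The 10 genes varied together across the libraries. The 45 pairwise Pearson correlations of their log2 CPM ranged from 0.59 to 0.95 (median 0.81) over the 8 libraries, which share their library, depth and group differences. As a share of all counts, they took 0.0963% and 0.108% in the wild-type libraries and 0.0450% to 0.0739% in the mutant libraries. Within the set, ND75 held 16.7% to 25.8% of the members' counts. The share of ND42 was 9.62% and 8.75% in the gain-of-function libraries and 11.7% to 15.7% in the others. The 7 core genes together stood at 70.0%, 51.3% and 48.2% of the wild-type mean in the deficiency, 2-deletion and gain-of-function groups, and the 3 accessory genes at 58.7%, 41.2% and 34.7%. The core sum includes the gene not described singly. The 24 further accessory subunits of complex I, outside the 10, stood at 68.0%, 46.6% and 43.4% in the same groups. Between the core and accessory members no test was made.

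The rest of the nuclear complex I was measured through 24 further accessory subunits, of which 21 were tested. In loss of function all 21 folds were negative, as were 49.9% of all folds, with a median of -0.85 on the log2 scale. None rose and 1 of the 21 fell, where 1.58% of all genes fell. It was l(3)neo18 (ND-SGDH, a membrane-arm subunit), at 68.3 and 98.6 CPM in wild type, 56.7 and 46.2 in the deficiency libraries and 34.2 and 23.2 in the 2-deletion libraries (log2 fold -1.11, SE 0.25, adjusted p = 0.0478, edgeR). In gain of function all 21 folds were negative, as were 49.0% of all folds, with a median of -1.26. None rose and 6 of the 21 fell, where 2.19% of all genes fell. Among these, CG8680 (ND-13A), the counterpart of the matrix-arm subunit NDUFS6, was at 5.68 and 5.55 CPM beside wild-type levels of 30.1 and 25.7, on 7 and 6 counts (log2 fold -2.29, SE 0.45, adjusted p = 0.0225, edgeR). CG12400 (ND-B14.5B) was at 13.0 and 9.25 CPM beside 31.2 and 47.1 (-1.79, SE 0.39, adjusted p = 0.0317). For l(3)neo18 and CG3446 (ND-B16.6) the folds were -1.31 (SE 0.30, adjusted p = 0.0391) and -1.32 (SE 0.32, adjusted p = 0.0449), by the same test. These 4 were picked by p among the called genes in the same libraries. Both gain-of-function libraries lay below both wild-type libraries for all 21 tested accessory genes, as for 24.9% of all genes.

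Assembly factors, which help build the complex and are not part of it, were nearer to wild type in their summed level. Of the 5 genes listed, 4 were tested and none was called in loss or gain of function by edgeR, with 1 and 0 at an unadjusted p under 0.05 and median log2 folds of -0.47 and -0.28. Single genes differed, with log2 folds from -0.61 to 0.15 in loss and from -0.56 to 0.24 in gain of function. In each comparison 3 of the 4 were negative. The summed level of the 5 was 79.4% to 100.1% of the wild-type mean in the mutant libraries, and the difference from the subunits was not tested. Of 5 related copies of core subunit genes in the genome, 3 were tested and none was called, with 0 and 1 at an unadjusted p under 0.05. The copies had between 25 counts (CG2014, ND-20L) and 133 counts over all libraries, against 178 to 1053 for the 9 genes described singly. The sources used here do not say how reads shared by a gene and its copy were treated. CG9140 is overlapped on the other strand by 97 exon bases of CG34180, which had 4 counts in all, and no other member shares exon bases with another gene.

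The summed levels of complexes II, III and IV and of ATP synthase were below both wild-type libraries in every mutant library, at 35.1% to 76.1% of the wild-type mean. Calls of single genes differed between the complexes, and in the deficiency genotype alone 1 gene fell, in complex III. Complex II, which passes electrons from succinate to ubiquinone, had 0 of 4 genes called in loss (3 at an unadjusted p under 0.05) and 1 in gain of function. Its gene with the smallest p, CG10219 (SdhD), had log2 folds of -1.14 (adjusted p = 0.0916) and -2.04 (adjusted p = 0.0274) by edgeR. Complex III, the cytochrome bc1 complex, had 4 of 8 tested genes fall in loss and 5 in gain of function, among them CG4169 (UQCR-C2) in loss (-1.16, adjusted p = 0.0122) and CG3731 (UQCR-C1) in gain of function (-1.36, adjusted p = 0.00971). In complex IV, cytochrome c oxidase, 2 of 9 and 5 of 9 fell, with cype at -1.37 (adjusted p = 0.0305) in loss and CG11015 (COX5B) at -2.02 (adjusted p = 0.0197) in gain of function. In ATP synthase 4 of 13 and 10 of 13 fell, with ATPsyn-gamma at -1.04 (adjusted p = 0.0149) and CG3321 (ATPsynE) at -1.57 (adjusted p = 0.0103), all by edgeR. No gene of complexes II to IV or of ATP synthase rose in these comparisons. Of all genes tested, 1.58% fell in loss and 2.19% in gain of function.

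Set against these complexes library by library, the 10 members' summed CPM was 1.04 to 1.30 times that of complex III, 0.900 to 1.18 times that of complex IV and 0.153 to 0.210 times that of ATP synthase. For complex III both wild-type libraries, at 1.04 and 1.11, lay below the mutant ones, at 1.14 to 1.30. For complex IV wild type was at 1.18 and 0.991 and the mutant libraries at 0.900 to 1.03, and for ATP synthase both wild-type libraries, at 0.204 and 0.191, were inside the mutant range. These ratios were not tested. Against the complex I accessory list the ratio was 0.942 to 1.11 over all libraries, with 1.05 and 0.963 in wild type. Both cytochrome c genes had negative folds and neither was called, with 0 and 1 at an unadjusted p under 0.05. Of 5 carriers and outer membrane genes, porin, the outer membrane channel, fell in both (-0.74, adjusted p = 0.0467, and -0.92, adjusted p = 0.0314, edgeR). Of 8 regulators of mitochondrial genes none was called in loss or gain of function. At an unadjusted p under 0.05, 2 and 3 were higher and none was lower. The median log2 folds were 0.10 and 0.44, and 2 of the 8 folds were negative in each comparison. Their summed level was 126% to 137% of the wild-type mean in the mutant libraries.

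**Figure D5:**
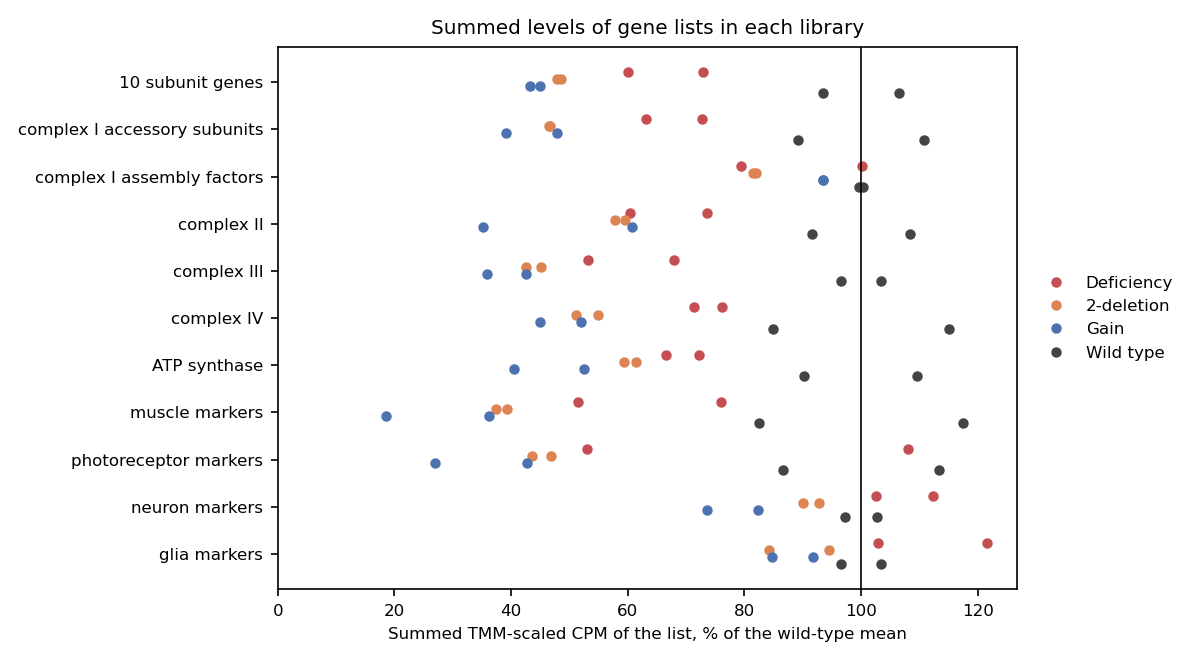
Summed TMM-scaled CPM of each gene list in each library, as a percentage of the wild-type mean (horizontal axis, from 0), for the complex I genes, other respiratory complexes and cell type markers, with points coloured by group and the line at the wild-type mean. The 10 subunit genes lie between 43.2% and 73.0% in the mutant libraries, and the muscle markers between 18.6% and 76.1%.

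Markers of muscle and photoreceptors, both rich in mitochondria, were measured in the same libraries. The summed level of 16 muscle markers was 82.6% and 117% of the wild-type mean in wild type, 51.5% and 76.1% in the deficiency libraries, 37.4% and 39.2% in the 2-deletion libraries and 18.6% and 36.3% in the gain-of-function group. All 16 had negative folds in both comparisons, 1 fell in loss and 7 in gain of function, the median log2 folds were -1.08 and -1.94, and none was at 0 counts in any library. Every mutant library was below both wild-type libraries in the muscle sum. The 8 photoreceptor markers summed to 113% and 86.7% in wild type, 53.1% and 108% in the deficiency libraries, 43.6% and 46.8% in the 2-deletion libraries and 27.0% and 42.7% in the gain-of-function group. Deficiency replicate 2 lay between the wild-type libraries in this sum. Of the 7 tested, 0 were called in loss (3 at an unadjusted p under 0.05) and 1 fell in gain of function, and Rh3 and Rh4 had libraries at 0 counts. Neuron markers summed to 90.1% to 112% in the loss-of-function and 73.6% and 82.3% in the gain-of-function libraries, and glia markers to 84.1% to 122% in all mutant libraries. None of the 8 neuron or 6 glia markers was called in either comparison by edgeR. At an unadjusted p under 0.05, 1 neuron marker was higher in loss of function, and no glia marker passed. In gain of function 3 neuron and 2 glia markers were lower at that limit, and 1 glia marker was higher. Median log2 folds of neuron and glia markers were -0.04 and -0.01 in loss and -0.45 and -0.47 in gain of function. Fat body markers summed to 101% to 179% in the mutant libraries, and 1 of the 4 tested fell in loss of function. The part of muscle and photoreceptor content in the lower complex I levels was not tested, nor was the tissue that the muscle RNA came from.

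Across the 8 libraries, 8 other genes had log2 CPM most like the members' mean, out of 9108 genes whose mean log2 CPM reached 3. By Pearson's r, given as a description, they were sls at 0.989, which encodes the fly titin of muscle, Acon (mitochondrial aconitase) at 0.988, Oscp (an ATP synthase subunit) at 0.983 and CG41623 (UQCR-11 of complex III) at 0.981. They went on with CG7135 at 0.980, slo (a calcium-activated potassium channel) and Ca-P60A (the calcium pump of the sarcoplasmic and endoplasmic reticulum), both at 0.979, and CG5214 at 0.978. Of these, sls is also on the muscle marker list, and Oscp and CG41623 are on the lists of ATP synthase and complex III. The level of Acon, for example, was 602 ± 51.5 CPM (SD, n = 2) in wild type and 401 ± 47.2 in the deficiency libraries. It was 276 ± 17.6 in the 2-deletion libraries and 239 ± 30.1 in the gain-of-function group. This order of groups is that of the members' sum, and Acon was chosen for its likeness over these same libraries.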

How the data were processed

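The authors deposited whole-number read counts per gene, 1 table per library. Per the labels' protocols, total RNA was depleted of ribosomal RNA (RiboMinus) and sequenced by SOLiD whole-transcriptome analysis. Per the submitters' processing notes, HTSeq and the dm3 build were used. Not given in the sources used here were the aligner, annotation, versions and strand setting, and reads of antisense genes therefore cannot be told apart. Names came from RefSeq (95.1% of symbols matched) and exon lengths from BDGP6, a later build, so no coordinates are given.

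Counts were analysed in R 4.3.3 with edgeR 4.0.16: filterByExpr (minimum count 10, total 15), TMM, 4 group means over 8 libraries, and the robust quasi-likelihood test (4 residual degrees of freedom), with Benjamini-Hochberg adjustment over 9252 genes and a threshold of 0.05. Loss of function is the mean of both genotypes. CPM are TMM-scaled, and log2 CPM have a prior count of 2. Alternatives included DESeq2 1.42.0 and limma 3.58.1. The test was tried on simulated data. The changed genes there lay above a level that some members do not reach, so the power for those is not known.

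The members, lists and tests were chosen with earlier results of these data known. Named were 9 of the 10 members (1 is not reported here singly), up to 4 called genes per direction among other complex I genes, the gene with the smallest p of each other complex, and the 8 most alike genes. TBPH, porin, CG2014, CG34180, Rh3 and Rh4 were named outside this rule.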

Additional observations from a re-analysis of the deposited data

Results flagged for a closer look

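CG6020 (ND-39, the NDUFA9 counterpart) stood out in the loss-of-function libraries. Deficiency replicate 2 was at 85.8 CPM, while the other 3 loss-of-function libraries lay between 32.5 and 41.0 CPM, and the gap was 0.841 of the whole range, above Dixon's 95% critical value for 4 samples. These 4 libraries hold 2 genotypes, and about 1 in 20 groups passes this limit by chance. All 10 members were checked in this way. The library was the highest of the 4 for 7 of the 10 members, for the members' sum, at 73.0% of the wild-type mean, for the muscle markers, at 76.1%, and for the photoreceptor markers, at 108%. Without it, the log2 fold of CG6020 in loss of function against wild type was -1.43. With all libraries it was -1.12 (adjusted p = 0.0509, edgeR quasi-likelihood test). The library was picked as the highest, so the deeper fall without it follows from the choice.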

How the results depend on the processing

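Read counts were low, with 12 to 192 reads for a member in a library, and 2 libraries a group leave 4 residual degrees of freedom. Folds moved widely for some members when 1 library was left out: ND23 had -0.66 in loss of function with all libraries and -1.05 to -0.14 without 1 of them, and CG5703 had -0.53 and -0.84 to -0.06. Under the alternatives 5 member folds turned sign, none of them a call: CG5703 (0.25 without wild-type replicate 1, range -0.52 to 0.25) and ND23 (0.11 without wild-type replicate 2, range -0.79 to 0.11) in the deficiency genotype against wild type, ND75 in the deficiency against the 2-deletion genotype (-0.0013 to 0.61, the sign turning without deficiency replicate 2), and CG6020 (-0.20 to 0.33, without deficiency replicate 2) and ND75 (-0.011 to 0.59, without gain-of-function replicate 1) in loss against gain of function. The causes were not tested.

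In loss of function against wild type, where 3 members were called, DESeq2 and limma-voom gave 2 each, upper-quartile scaling and no filter on low counts gave 5 each, a threshold of 0.01 gave 0, and leaving out both gain-of-function libraries, chosen after seeing the data, gave 6. With each library left out the count ran from 0 to 6. In gain of function, with 5, limma-voom gave 3 and a threshold of 0.01 gave 1, ND42, and leaving out each library gave 0 to 6. In the deficiency genotype, with 0, upper-quartile scaling gave 1, no filter gave 2 and leaving out both gain-of-function libraries gave 2, with 0 to 2 over single libraries left out. In the 2-deletion genotype, with 3, the counts were 5 without small RNA genes, 1 by DESeq2, 0 by limma-voom, 6 with no filter, 0 at 0.01, 7 without both gain-of-function libraries and 0 to 7 over single libraries left out. In the direct comparisons of mutant groups the count was 0 under all alternatives run. A lone library left in a group was assumed to vary like the other groups.

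Replicate numbers were not used to pair the samples in the main test. Deviations of same-numbered libraries correlated weakly, at 0.078, 0.17 and 0.13 among the mutant groups and at -0.05, -0.02 and -0.03 with wild type. A shared replicate effect was not tested. With a replicate block the counts were 5 in loss of function, 6 in gain of function, 1 for the deficiency genotype and 4 for the 2-deletion genotype. Over all genes, where 203, 288, 155 and 77 were called in these 4 comparisons, limma-voom called 84, 244, 8 and 14, no filter gave 403, 445, 318 and 188, and the block gave 293, 377, 202 and 147.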
